A study of Mus musculus with 12 samples.

Results

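Cryptochromes CRY1 and CRY2 are the repressors that close the negative feedback loop of the circadian clock, and whether a cell without them answers a glucocorticoid in the same way as a cell that has them was asked here gene by gene. The quantity described is the interaction of genotype and dexamethasone, which is the dexamethasone change in cryptochrome double knockout cells less the dexamethasone change in control cells. A positive interaction means that the change was more positive in the knockout cells, whether because a rise was larger, a fall was smaller, or the directions differed. All 12 arrays of the series enter it. Of the 25697 probes on each array, 12054 had a detection p under 0.01 on at least 3 arrays, 11382 of these carried a gene symbol, and they gave 8420 genes.

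The cells were primary embryonic fibroblasts (MEFs) of the mouse, connective-tissue cells cultured from C57BL6/J embryos at E15.5, read on Illumina bead arrays, which report the mean brightness of beads carrying a gene-specific probe. The groups were Cry1/Cry2 double knockout MEFs (dKO) with 1 µM dexamethasone (Dex, a synthetic agonist of the glucocorticoid receptor), dKO MEFs with the ethanol vehicle (EtOH), control MEFs with Dex and control MEFs with EtOH, each with 3 biological replicates after 16 hours. Per the sample labels the control cells are Cry1+/-Cry2+/-, so they carry 1 intact copy of each gene, while the design text has them as wild type. Here they are named control. Whether the replicates came from separate embryos is not stated, so the p-values measure the spread between these 12 cultures.

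As background, the transcription factors CLOCK and BMAL1 (encoded by Arntl) bind E-box elements and drive the genes of their own repressors, the PER and CRY proteins, together with output genes such as Dbp, Tef, Nr1d1 and Nr1d2. Dex binds the glucocorticoid receptor, which then raises genes such as Fkbp5 and Tsc22d3 and lowers many inflammatory genes. The receptor also raises Per1 directly, which is one route by which glucocorticoids set the clock of peripheral cells. Cryptochromes are known to bind nuclear receptors, the glucocorticoid receptor among them, and to reduce what they activate.

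Levels below are on the log2 scale, from background-corrected and quantile-normalized signals, so that 1 unit is a factor of 2. Changes are differences of such levels with the standard error (SE) of a linear model over all 12 arrays, n is 3 arrays per group, and a gene was called when its adjusted p was under 0.05. An array read 10953 to 11527 probes above background (42.6% to 44.9%), and its lowest above-background level lay between 6.09 and 6.35. The third principal component (14.9% of the variance) set 3 arrays apart from the rest of their groups: dKO EtOH replicates 1 and 2 and control Dex replicate 3. Both of these groups enter the interaction with a minus sign, so what these arrays share moves the interaction of a gene in 1 direction, and counts are given with and without them. Without them dKO EtOH is replicate 3 alone, which is then assumed to vary like the other groups. Which dKO EtOH arrays are the odd ones cannot be told, since replicates 1 and 2 lay together and replicate 3 apart from them. With group means taken out, the first component held 45.1% of the remaining variance. Its extremes were dKO EtOH replicate 3 (23.14) and control Dex replicate 3 (-22.43), while dKO EtOH replicates 1 and 2 had -13.41 and -9.73. Cry1 was not above background on any of the 12 arrays. The Cry2 probe was above background on all 6 dKO arrays and on 4 of the 6 control arrays, so neither probe checked the deletion. Their place relative to the deleted exons is not known here.

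The Dex change differed between the genotypes for 193 of the 8420 genes, which is 2.29%. The interaction was positive for 108 of them (1.28%) and negative for 85 (1.01%), and 1890 genes had an unadjusted p under 0.05. It reached a factor of 2 for 59 positive and 51 negative genes and a factor of 4 for 3 of each. The size among positive calls had a median of 1.03 and among negative calls a median of -1.10. Without the 3 arrays that stand apart 68 genes were called, 39 of them among the 193, and all 193 kept their sign. Median scaling of the arrays in place of quantile normalization gave 697 calls, 596 positive and 101 negative, and moved the median interaction of all genes to 0.30, against 0.08 with quantile normalization. That setting made 85.5% of the calls positive, against 56.0%, so the balance of positive and negative calls depends on the scaling.

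For most genes any difference between the genotypes in the Dex change was bounded. The 95% interval of the interaction lay wholly within a factor of 2 for 6210 genes (73.8%), with a median SE of 0.20. Across the 8420 genes, which are not independent replicates, the Dex change in dKO and that in control had a Pearson correlation of 0.561. It was 0.843 among the 2004 genes whose Dex change averaged over both genotypes was called. The plot of the Dex changes in both genotypes shows a single broad diagonal with called genes on either side.

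**Figure D1:**
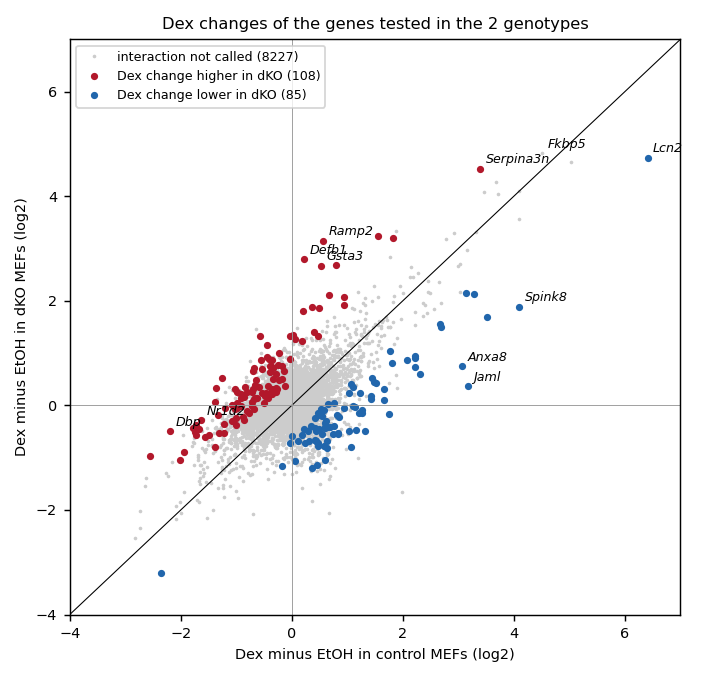
Dex minus EtOH (log2) in dKO MEFs on the vertical axis against the same in control MEFs on the horizontal axis, 1 point per gene, with the line of equal change. The 108 genes with a positive interaction lie above the line and the 85 with a negative one below it, and Fkbp5 lies near the line at the upper right.

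Each genotype's own Dex change was read beside the interaction. Over all genes Dex raised 8.62% and lowered 5.99% in dKO (14.6% in all), and raised 8.85% and lowered 11.4% in control (20.3%). Among the 108 positive genes, 51 fell in control MEFs and did not pass in dKO MEFs, 30 rose in dKO and did not pass in control, 12 fell in both, 8 rose in both and 7 rose in dKO but fell in control. Among the 85 negative genes, 40 rose in control and did not pass in dKO, 18 fell in dKO and did not pass in control, 17 rose in both, 9 fell in dKO but rose in control and 1 fell in both. So 91 of the 193 were genes whose Dex change was called in control cells only. A change that missed the threshold in 1 genotype is not shown to be absent there, and the interaction itself is the test of the difference.

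The same genes can be read as genotype differences under each treatment. Over all genes 9.89% were higher and 9.81% lower in dKO with Dex (19.7% in all), and 10.7% higher and 15.8% lower with EtOH (26.6%). Of the 108 positive genes, 56 were higher and 8 lower in dKO than in control with Dex, and 13 were higher and 62 lower in dKO with EtOH. Of the 85 negative genes, 6 were higher and 56 lower in dKO with Dex, and 52 were higher and 3 lower in dKO with EtOH. The genotype difference passed in opposite directions under the 2 treatments for 10 positive and 23 negative genes.

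A group of 19 genes was called in the reported fit and in all 27 alternative fits, which changed the background correction, scaling, filter, variance model, blocking and the arrays used. Positive among them were Cd83, Dbp, Defb1, Gsta3, Il16, Nr1d2, Ramp2, Rnase2a, Rpp25 and Tnnt1. Negative were Anxa8, Jaml, Kif3b, Lcn2, Rab15, Smarcc1, Spink8, Stard10 and Tinagl1. In 9 of the 19 at least 1 group was at background, meaning above it on none of its 3 arrays, and for these the value is also given with every array raised to its lowest above-background level. A further 55 of the 193 were called in at least 14 of the 27 alternatives, which makes 74 in all.

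**Figure D2:**
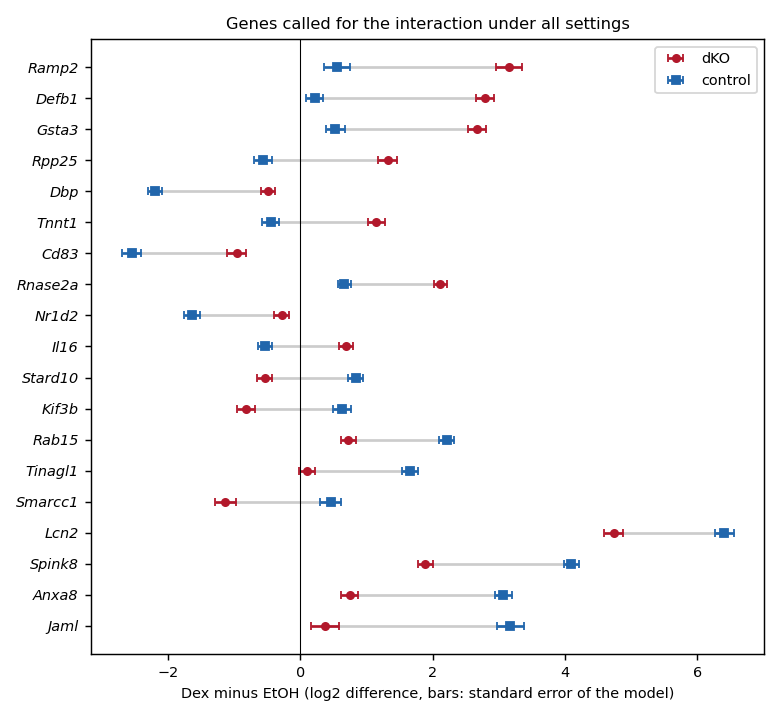
Dex minus EtOH (log2, with the SE of the model) in dKO MEFs (circles) and control MEFs (squares) for the 19 genes called in all fits, ordered by interaction. Lcn2 has the largest Dex change in both genotypes, and Stard10, Kif3b, Smarcc1, Il16, Rpp25 and Tnnt1 have changes of opposite sign in the genotypes.

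The called clock genes were the PAR bZIP activators Dbp and Tef, which bind D-box elements, and the REV-ERB repressors Nr1d1 and Nr1d2, which repress Arntl. Their promoter windows, from 250 bases before to 50 after the RefSeq start (GRCm38.p6), are shown because these 4 genes moved together and are textbook E-box targets. Capitals mark an E-box (CACGTG) or, for Nr1d1, the variant CACGTT on the opposite strand, and both strands were searched. The variant was added to the search after these windows had been read.
Dbp, chr7:45704997-45705296, plus strand: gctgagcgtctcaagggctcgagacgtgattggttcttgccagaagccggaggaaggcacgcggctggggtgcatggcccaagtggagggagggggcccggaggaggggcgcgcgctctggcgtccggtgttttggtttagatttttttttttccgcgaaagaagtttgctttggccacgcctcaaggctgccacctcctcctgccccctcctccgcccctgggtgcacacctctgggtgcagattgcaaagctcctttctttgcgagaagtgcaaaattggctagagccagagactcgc
Nr1d2, chr14:18239057-18239356, minus strand: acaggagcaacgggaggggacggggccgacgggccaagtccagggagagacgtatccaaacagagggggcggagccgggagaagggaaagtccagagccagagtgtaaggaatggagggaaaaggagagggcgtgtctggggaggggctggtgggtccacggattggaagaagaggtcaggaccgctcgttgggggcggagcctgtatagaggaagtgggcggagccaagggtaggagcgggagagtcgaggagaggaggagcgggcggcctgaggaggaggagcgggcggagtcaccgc
Tef first start, chr15:81802423-81802722, plus strand: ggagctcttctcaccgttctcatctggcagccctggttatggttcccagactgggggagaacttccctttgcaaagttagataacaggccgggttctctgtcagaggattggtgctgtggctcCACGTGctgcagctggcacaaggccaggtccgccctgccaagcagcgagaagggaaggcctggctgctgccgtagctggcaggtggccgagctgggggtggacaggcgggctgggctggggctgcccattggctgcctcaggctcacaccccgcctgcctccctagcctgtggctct
Tef second start, chr15:81811164-81811463, plus strand: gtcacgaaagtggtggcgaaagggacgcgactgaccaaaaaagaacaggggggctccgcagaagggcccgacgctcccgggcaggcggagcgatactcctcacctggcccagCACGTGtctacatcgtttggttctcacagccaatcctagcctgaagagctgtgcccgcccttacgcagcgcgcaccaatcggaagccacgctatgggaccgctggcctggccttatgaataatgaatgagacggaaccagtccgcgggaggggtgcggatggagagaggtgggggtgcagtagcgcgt
Nr1d1, chr11:98775328-98775627, minus strand: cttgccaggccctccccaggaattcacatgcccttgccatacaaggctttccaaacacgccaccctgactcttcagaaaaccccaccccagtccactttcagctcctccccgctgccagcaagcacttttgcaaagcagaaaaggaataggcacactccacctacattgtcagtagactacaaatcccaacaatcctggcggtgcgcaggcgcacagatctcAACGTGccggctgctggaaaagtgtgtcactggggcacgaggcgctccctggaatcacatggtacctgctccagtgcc

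Counted from the start, the first base of the E-box lay at -127 in the first Tef window and at -138 in the second, and that of the Nr1d1 variant at -28. These letters were not found in the windows of Dbp and Nr1d2. The E-box occurred in 10 of 113 windows (8.85%) of positive genes and in 6 of 79 (7.59%) of negative genes, against 9.76% of those of the genes tested and 7.15% of all 32851 windows of the table. The variant occurred in 4.42% of windows of positive genes and 1.27% of windows of negative genes, against 4.68% of all windows. The half-site of the receptor's element, AGAACA, was in 13.3% of positive, 15.2% of negative and 12.4% of tested windows. The AP-1 element TGANTCA was in 6.19% of positive, 11.4% of negative and 5.54% of tested windows. Windows were found for 149 of the 193 genes, and a match of letters is not a binding site.

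Dbp fell with Dex in both genotypes, and less so in dKO. The Dbp level in dKO MEFs was 13.22, 13.25 and 13.19 with Dex and 13.63, 13.77 and 13.72 with EtOH. For Dbp the control MEFs gave 10.24, 10.27 and 10.07 with Dex and 12.19, 12.56 and 12.41 with EtOH. All dKO arrays lay above all control arrays, and the control Dex arrays were the lowest. Dbp fell by 0.49 ± 0.11 in dKO and by 2.19 ± 0.11 in control, and the interaction was 1.70 ± 0.15 (adjusted p = 0.000333). The genotype difference was therefore 3.02 ± 0.11 with Dex and 1.32 ± 0.11 with EtOH. 

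Nr1d2, which encodes REV-ERBβ, had the same order of groups. Nr1d2 measured 9.49, 9.07 and 9.36 in dKO Dex and 9.66, 9.55 and 9.55 in dKO EtOH. Control Dex arrays gave 6.76, 6.87 and 6.80, and control EtOH arrays 8.33, 8.44 and 8.55. The change of -0.28 ± 0.11 in dKO was not called, while in control Nr1d2 fell by 1.63 ± 0.11, and the interaction was 1.35 ± 0.16 (adjusted p = 0.00174). dKO arrays were above control arrays by 2.50 ± 0.11 with Dex and by 1.14 ± 0.11 with EtOH.

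Tef repeated the pattern at a smaller size. In dKO cells Tef read 10.48, 10.26 and 10.18 with Dex and 10.37, 10.24 and 10.31 with EtOH. Control cells had 8.47, 8.69 and 8.65 with Dex and 9.61, 9.47 and 9.47 with EtOH. The dKO groups overlapped, with no change that passed, while Tef fell by 0.92 ± 0.10 in control cells. The interaction of Tef was 0.92 ± 0.15 (adjusted p = 0.0166). Without the 3 arrays that stand apart it was 0.93 with an adjusted p of 0.0719.

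Nr1d1, which encodes REV-ERBα, was noisier. Signals of Nr1d1 were 8.52, 8.42 and 8.72 in dKO Dex and 7.67, 7.83 and 8.58 in dKO EtOH. Nr1d1 was 7.19, 7.55 and 6.53 in control Dex and 8.19, 8.54 and 8.31 in control EtOH. Control Dex arrays were the lowest, and the dKO EtOH arrays spread over almost 1 unit. Nr1d1 fell by 1.26 ± 0.26 in control, its change of 0.53 ± 0.26 in dKO was not called, and the interaction was 1.79 ± 0.37 (adjusted p = 0.0379). Nr1d1 was called in 12 of the 27 alternatives. Without the 3 arrays that stand apart its interaction was 0.95 (adjusted p = 0.115).

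**Figure D3:**
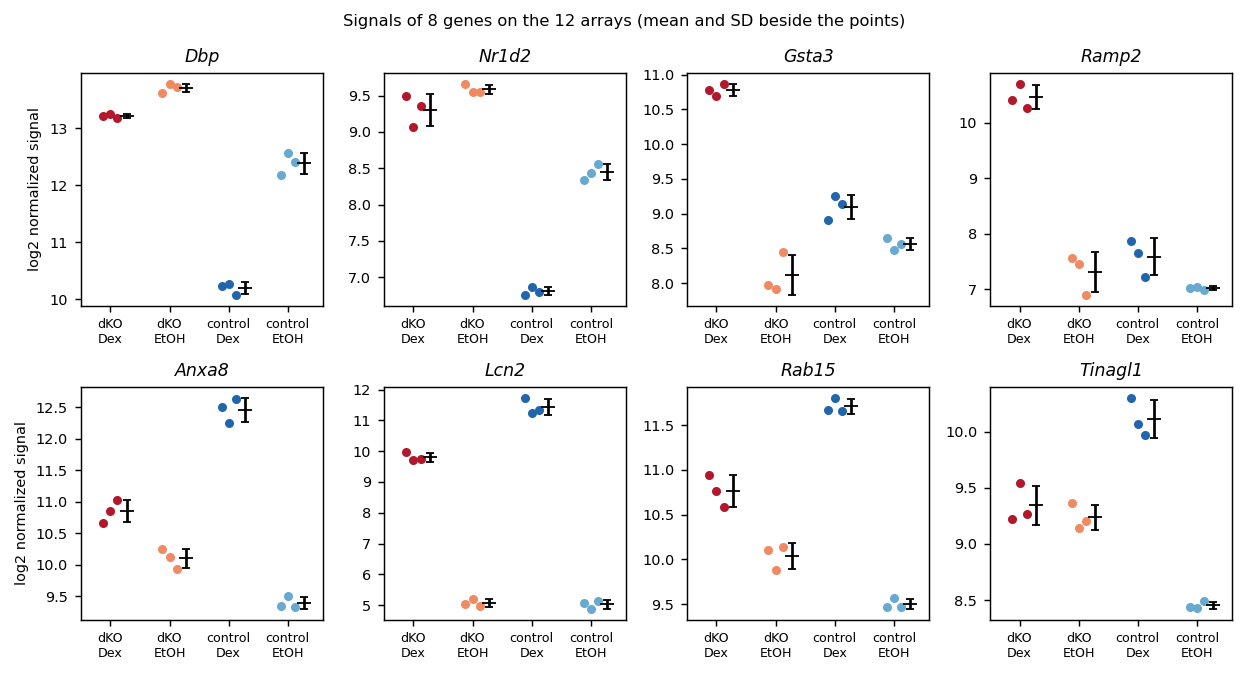
Log2 normalized signal on each of the 12 arrays for 8 genes, in the order dKO Dex, dKO EtOH, control Dex, control EtOH, with the mean and SD of 3 arrays beside the points. Dbp and Nr1d2 are lowest in control Dex, Gsta3 and Ramp2 highest in dKO Dex, and Anxa8, Lcn2, Rab15 and Tinagl1 highest in control Dex.

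Of the list of 17 E-box and D-box clock outputs, 13 were tested, 4 were called (30.8%, against 2.29% of all genes) and all 4 were positive. The lists here and below were chosen with earlier results of these data known, so a high share called is no test of a list. The list median was 0.48, against 0.08 over all genes, and 8 of 13 were positive, against 58.8% of all genes. The median was 0.41 without the 3 arrays that stand apart and 0.39 with a term for them, which left 3 called. The PER genes did not pass. The Per2 level in dKO MEFs was 10.30, 10.13 and 10.28 with Dex and 10.10, 9.87 and 10.16 with EtOH. The control arrays read 6.63, 6.78 and 7.10 with Dex and 7.21, 7.05 and 7.29 with EtOH. Per2, a clock repressor, was far higher in every dKO array than in any control array, and the interaction of 0.54 ± 0.19 (adjusted p = 0.132) was not called. Per1 measured 9.66, 9.96 and 9.87 in dKO Dex and 8.18, 8.36 and 8.44 in dKO EtOH. For Per1 the control MEFs gave 9.54, 9.39 and 9.13 with Dex and 7.70, 7.27 and 7.81 with EtOH. Per1 rose in both genotypes, by 1.5 ± 0.16 in dKO and 1.76 ± 0.16 in control, and the interaction of -0.26 ± 0.22 (adjusted p = 0.511) was not called. Cry2 had an interaction of -0.34 ± 0.29 (adjusted p = 0.499). The positive arm and the RORE-driven genes, which are those that REV-ERBs repress, had 5 tested genes, of which 0 were called. Of the 5, 4 were negative, against 41.2% of all genes, with a list median of -0.33. At an unadjusted p under 0.05 the fit has 2 of these 5, against 1890 of all 8420 genes. Clock had -0.66 ± 0.17 (adjusted p = 0.065), Arntl -0.58 ± 0.18 (0.105), Nfil3 -0.33 ± 0.15 (0.226) and Rora -0.24 ± 0.18 (0.463).

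The largest positive interactions were of genes that Dex raised mainly in dKO cells. Ramp2, an accessory protein that turns the calcitonin receptor-like receptor into an adrenomedullin receptor, had the largest. In dKO cells Ramp2 read 10.42, 10.70 and 10.27 with Dex and 7.57, 7.47 and 6.90 with EtOH. Control Dex arrays gave 7.87, 7.66 and 7.22, and control EtOH arrays 7.03, 7.05 and 6.99. The dKO Dex arrays stood at least 2 units above every other array. Ramp2 rose by 3.15 ± 0.20 in dKO, its change of 0.56 ± 0.20 in control was not called, and the interaction was 2.59 ± 0.28 (adjusted p = 0.000856).

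Gsta3, a glutathione transferase of the alpha class that conjugates reactive compounds, behaved alike. Signals of Gsta3 were 10.78, 10.70 and 10.87 in dKO Dex and 7.98, 7.92 and 8.44 in dKO EtOH. Control cells had 8.91, 9.25 and 9.14 with Dex and 8.66, 8.48 and 8.56 with EtOH. With Dex the dKO arrays were the highest of all, and with EtOH they were the lowest. Gsta3 rose by 2.67 ± 0.14 in dKO and by 0.53 ± 0.14 in control, and the interaction was 2.14 ± 0.20 (adjusted p = 0.000445).

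Defb1, a beta-defensin and thus an antimicrobial peptide, was above background in dKO Dex alone, and so passed the filter through that group alone. The Defb1 level in dKO MEFs was 8.54, 8.61 and 8.96 with Dex and 5.96, 5.92 and 5.85 with EtOH. Defb1 was 4.80, 4.99 and 5.16 in control Dex and 4.67, 4.70 and 4.92 in control EtOH. It was at least 5.85-fold higher with Dex in dKO, and no fold can be given in control, where both groups were at background. The interaction of Defb1 was 2.57 ± 0.19 (adjusted p = 7.46e-05). With values at background raised to the array's floor it was 2.57 (adjusted p = 4.9e-06).

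Rnase2a, a secreted ribonuclease of the eosinophil-associated family, was lower in dKO than in control throughout. Rnase2a measured 8.0, 7.87 and 7.77 in dKO Dex and 5.76, 5.74 and 5.79 in dKO EtOH. The control arrays read 9.21, 9.04 and 8.99 with Dex and 8.34, 8.54 and 8.36 with EtOH. The dKO EtOH arrays were at background, so Dex raised it at least 3.30-fold there, and by 0.67 ± 0.10 in control. The interaction of Rnase2a was 1.44 ± 0.14 (adjusted p = 0.000516). At the floor its interaction was 1.05 (adjusted p = 0.00202).

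Rpp25, a protein subunit of ribonucleases P and MRP, and Il16, a secreted chemoattractant of CD4-bearing cells, moved in opposite directions in the genotypes. In dKO cells Rpp25 read 6.86, 6.64 and 6.50 with Dex and 5.27, 5.45 and 5.33 with EtOH. For Rpp25 the control MEFs gave 7.62, 7.26 and 7.11 with Dex and 7.84, 7.98 and 7.86 with EtOH. Rpp25 was at background in dKO EtOH, at least 1.43-fold higher in dKO Dex, and fell by 0.56 ± 0.14 in control, and the interaction was 1.88 ± 0.19 (adjusted p = 0.000808). Its interaction with values raised to the floor was 1.08 (adjusted p = 0.0103). Signals of Il16 were 6.52, 6.44 and 6.16 in dKO Dex and 5.70, 5.68 and 5.66 in dKO EtOH. Control Dex arrays gave 6.98, 7.06 and 6.95, and control EtOH arrays 7.60, 7.44 and 7.55. Il16 was likewise at background in dKO EtOH and above it on 2 of 3 dKO Dex arrays, fell by 0.53 ± 0.10 in control, and the interaction was 1.23 ± 0.15 (adjusted p = 0.00174). At the floor that of Il16 was 0.81 (adjusted p = 0.00565).

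Tnnt1, the slow skeletal muscle troponin T, also had opposite directions. The Tnnt1 level in dKO MEFs was 9.16, 9.45 and 9.42 with Dex and 8.33, 8.11 and 8.16 with EtOH. Control cells had 7.51, 7.27 and 7.09 with Dex and 7.67, 7.69 and 7.84 with EtOH. It rose by 1.15 ± 0.13 in dKO, fell by 0.44 ± 0.13 in control, and the interaction was 1.59 ± 0.18 (adjusted p = 0.00121). It is the 1 called gene of the 4 tested skeletal muscle markers, whose summed signal ran from 12000 to 13400 in dKO Dex, 12900 to 13900 in dKO EtOH, 5700 to 7030 in control Dex and 5580 to 7010 in control EtOH. The myogenic factors Myod1, Myog, Myf5 and Myf6 were not among the genes tested. The part of muscle-like cells in the result was not tested.

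Cd83, a surface protein best known from mature dendritic cells, fell with Dex. Cd83 measured 5.31, 5.30 and 5.67 in dKO Dex and 6.53, 6.06 and 6.58 in dKO EtOH. Cd83 was 5.42, 5.49 and 5.60 in control Dex and 8.04, 8.02 and 8.09 in control EtOH. It was above background on all control EtOH arrays and on 2 dKO EtOH arrays, and both Dex groups were at background. It was at least 1.05-fold lower with Dex in dKO and at least 3.65-fold lower in control, and the interaction was 1.58 ± 0.21 (adjusted p = 0.00343). With values at the floor that was 1.79 (adjusted p = 0.000183).

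Further positive genes were Pdlim4, a PDZ and LIM protein of actin fibres, with 1.24 ± 0.16, Abra, an actin-binding protein, with 1.59 ± 0.25, Mlf1 with 1.06 ± 0.18 and 5031410I06Rik with 1.17 ± 0.19. In dKO cells Pdlim4 read 10.30, 9.99 and 10.21 with Dex and 10.71, 10.77 and 10.54 with EtOH. The control arrays read 9.37, 9.54 and 9.43 with Dex and 11.26, 11.03 and 11.29 with EtOH. Pdlim4 fell by 0.51 ± 0.11 in dKO and by 1.75 ± 0.11 in control, and its groups did not overlap. Pdlim4 was called in 26 of the 27 alternatives. Abra was above background in dKO Dex alone and 5031410I06Rik in control EtOH alone, so each passed the filter through that group alone. Raised to the floor neither was called, with 0.51 (adjusted p = 0.113) and 0.52 (adjusted p = 0.079). Without the 3 arrays that stand apart Abra, Mlf1 and 5031410I06Rik were not called, with 1.43 (adjusted p = 0.0651), 1.01 (0.055) and 0.94 (0.109).

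On the negative side, genes that Dex raised more in control cells came first. Lcn2, an iron-carrier-binding protein of the acute phase, had the largest Dex change of them. Signals of Lcn2 were 9.97, 9.71 and 9.74 in dKO Dex and 5.02, 5.21 and 4.96 in dKO EtOH. For Lcn2 the control MEFs gave 11.73, 11.25 and 11.32 with Dex and 5.07, 4.87 and 5.14 with EtOH. Both EtOH groups were at background, and the control Dex arrays lay above all dKO Dex arrays. Dex raised Lcn2 at least 12.5-fold in dKO and at least 37.7-fold in control, and the interaction was -1.67 ± 0.20 (adjusted p = 0.00174). Raised to the floor the interaction was -1.59 (adjusted p = 0.000503).

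Spink8, a member of the Kazal family of serine peptidase inhibitors, showed the same order. The Spink8 level in dKO MEFs was 6.93, 6.99 and 6.85 with Dex and 4.91, 5.26 and 4.94 with EtOH. Control Dex arrays gave 8.75, 8.93 and 9.03, and control EtOH arrays 4.76, 4.86 and 4.80. With both EtOH groups at background, Dex raised it at least 1.70-fold in dKO and at least 6.52-fold in control, and the interaction was -2.21 ± 0.16 (adjusted p = 7.46e-05). Its floored value was -1.94 (adjusted p = 1.28e-05).

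Anxa8, a calcium- and phospholipid-binding annexin, was above background everywhere. Anxa8 measured 10.67, 10.85 and 11.03 in dKO Dex and 10.24, 10.13 and 9.94 in dKO EtOH. Control cells had 12.50, 12.25 and 12.62 with Dex and 9.34, 9.50 and 9.33 with EtOH. With Dex the dKO arrays were below the control arrays, and with EtOH they were above them. Anxa8 rose by 0.75 ± 0.13 in dKO and 3.07 ± 0.13 in control, and the interaction was -2.32 ± 0.18 (adjusted p = 0.000125). The genotype difference was -1.61 ± 0.13 with Dex and 0.71 ± 0.13 with EtOH.

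Rab15, a small GTPase of endosomal traffic, and Tinagl1, a secreted matricellular protein, turned round between treatments in the same way. In dKO cells Rab15 read 10.95, 10.76 and 10.59 with Dex and 10.10, 9.88 and 10.14 with EtOH. Rab15 was 11.67, 11.81 and 11.66 in control Dex and 9.47, 9.57 and 9.47 in control EtOH. Rab15 rose by 0.73 ± 0.11 in dKO and 2.21 ± 0.11 in control, and the interaction was -1.48 ± 0.16 (adjusted p = 0.000856). Signals of Tinagl1 were 9.22, 9.55 and 9.26 in dKO Dex and 9.36, 9.15 and 9.21 in dKO EtOH. The control arrays read 10.30, 10.07 and 9.97 with Dex and 8.43, 8.43 and 8.49 with EtOH. In dKO cells the Tinagl1 groups overlapped, at 0.11 ± 0.12, while it rose by 1.66 ± 0.12 in control, and the interaction was -1.56 ± 0.17 (adjusted p = 0.000856).

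Jaml, a junctional adhesion molecule of leukocytes and epithelia, was above background on every control Dex array and on 1 other array, in dKO Dex. The Jaml level in dKO MEFs was 6.33, 6.0 and 5.91 with Dex and 5.63, 5.95 and 5.55 with EtOH. For Jaml the control MEFs gave 8.79, 8.91 and 8.75 with Dex and 5.30, 6.19 and 5.44 with EtOH. Dex raised it at least 6.12-fold in control, and its change of 0.37 ± 0.21 in dKO was not called. The interaction of Jaml was -2.80 ± 0.29 (adjusted p = 0.000856). Raised to the floor it was -2.43 (adjusted p = 6.56e-07).

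For Stard10, a lipid transfer protein, Kif3b, a motor subunit of kinesin-2, and Smarcc1, a core subunit of SWI/SNF chromatin remodelling complexes, the Dex changes had opposite signs. Stard10 measured 8.69, 8.68 and 8.76 in dKO Dex and 9.34, 9.36 and 9.05 in dKO EtOH. Control Dex arrays gave 8.93, 8.95 and 8.86, and control EtOH arrays 7.90, 8.20 and 8.13. Stard10 fell by 0.54 ± 0.11 in dKO, rose by 0.84 ± 0.11 in control, and the interaction was -1.38 ± 0.16 (adjusted p = 0.00121). The genotypes differed by 1.17 ± 0.11 with EtOH. In dKO cells Kif3b read 5.74, 6.08 and 5.76 with Dex and 6.45, 6.79 and 6.81 with EtOH. Control cells had 6.65, 6.67 and 6.83 with Dex and 5.95, 6.06 and 6.26 with EtOH. Kif3b was at background in dKO Dex, at least 1.29-fold lower than in dKO EtOH, and the interaction was -1.45 ± 0.19 (adjusted p = 0.0036). Raised to the floor its interaction was -0.88 (adjusted p = 0.0103). Signals of Smarcc1 were 6.65, 6.65 and 6.43 in dKO Dex and 7.82, 7.83 and 7.47 in dKO EtOH. Smarcc1 was 7.34, 7.21 and 7.71 in control Dex and 6.74, 7.09 and 7.05 in control EtOH. Smarcc1 fell by 1.13 ± 0.15 in dKO, its change of 0.46 ± 0.15 in control missed the threshold (adjusted p = 0.0579), and the interaction was -1.59 ± 0.22 (adjusted p = 0.00486).

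Aqp1, the water channel, and Igfbp6, a secreted binding protein of insulin-like growth factors, were raised by Dex in control cells towards the level that dKO cells had without it. The Aqp1 level in dKO MEFs was 12.97, 13.16 and 12.95 with Dex and 13.01, 13.16 and 13.33 with EtOH. The control arrays read 11.91, 11.65 and 12.02 with Dex and 10.71, 10.72 and 10.36 with EtOH. The dKO groups overlapped and exceeded every control array, Aqp1 rose by 1.26 ± 0.14 in control, and the interaction was -1.40 ± 0.19 (adjusted p = 0.00505). Igfbp6 measured 13.30, 13.38 and 13.48 in dKO Dex and 13.12, 13.29 and 13.20 in dKO EtOH. For Igfbp6 the control MEFs gave 13.12, 12.88 and 12.53 with Dex and 11.38, 11.38 and 11.50 with EtOH. Igfbp6 rose by 1.43 ± 0.13 in control with an uncalled 0.19 ± 0.13 in dKO, and the interaction was -1.24 ± 0.19 (adjusted p = 0.0125). Both were called in 26 of the 27 alternatives.

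The other negative genes named were Trpc4 (-1.35 ± 0.17), a cation channel subunit, B3galnt1 (-1.08 ± 0.15), a glycosyltransferase, Mgst2 (-0.99 ± 0.16), a microsomal glutathione transferase, and Dlg3 (-0.93 ± 0.15), a scaffold of cell junctions and synapses. Trpc4 was above background in control Dex alone, and so passed the filter through that group alone. Raised to the floor its interaction of -0.21 was not called (adjusted p = 0.418). Without the 3 arrays that stand apart B3galnt1, Mgst2 and Dlg3 were not called, with -0.96 (adjusted p = 0.0557), -0.87 (0.0719) and -0.87 (0.0545).

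The shift shared by the 3 arrays that stand apart was called for 2117 of all genes (25.1%), with a median of -0.07. A lower level on these arrays moves the interaction up. Among the 108 positive genes the shift was called lower for 13 and higher for 1, with a median of -0.10. Among the 85 negative genes it was called higher for 16 and lower for 1, with a median of 0.15. A shift inside a group widens its spread and so raises the p of a gene. The 30 genes with the smallest p in each direction were thus picked towards a small shift, which was called for 1 of them. Of these 30, 23 were called without the 3 arrays and 25 with a term for their shift, and all 30 kept their sign. Over all genes the median interaction was 0.01 in both fits, against 0.08 with all arrays.

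Genes moved by Dex in either genotype were compared next, chosen by the average of both Dex changes, which in this balanced design is orthogonal to the interaction and was called for 23.8% of genes. It rose for 11.5% and fell for 12.3%. The 968 genes with an average rise had a median change of 0.54 in dKO and 0.53 in control, a median interaction of -0.01, and 64 called (6.61%), 26 positive and 38 negative. The 1036 genes with an average fall had a median of -0.38 in dKO and -0.57 in control, a median interaction of 0.21, and 49 called (4.73%), 42 positive and 7 negative. Of these lowered genes 70.2% had a positive interaction, against 58.8% of all genes and 48.9% of raised genes. The same held for the 104 genes lowered at least 2-fold on average, with medians of -1.15 in dKO and -1.53 in control and 12 positive calls against 1 negative. The 170 genes raised at least 2-fold had medians of 1.51 in dKO and 1.49 in control, with 13 positive and 16 negative calls. With median scaling both medians moved up with that of all genes, to 0.17 for raised and 0.43 for lowered genes, where the genes were chosen again in that fit. For the same 968 and 1036 genes the medians without the 3 arrays that stand apart were -0.13 and 0.20, against 0.01 over all genes. The median of the 170 genes raised at least 2-fold, -0.01 with all arrays, was -0.21 without these 3 arrays and -0.24 with a term for them, and that of the 104 lowered genes, 0.29 with all arrays, was 0.41 in both fits.

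The classical glucocorticoid targets were raised in both genotypes with no interaction that passed. In dKO cells Fkbp5 read 11.55, 11.76 and 11.71 with Dex and 6.57, 6.91 and 7.07 with EtOH. Control Dex arrays gave 12.49, 12.35 and 12, and control EtOH arrays 7.73, 7.84 and 7.75. Fkbp5, an HSP90 co-chaperone that damps receptor signalling, rose by 4.82 ± 0.15 in dKO and 4.50 ± 0.15 in control, and the interaction of 0.32 ± 0.21 (adjusted p = 0.383) was not called. It was -0.04 without the 3 arrays that stand apart and -0.12 without background correction. Signals of Tsc22d3 were 13.90, 14.10 and 14.16 in dKO Dex and 12.18, 12.02 and 12.11 in dKO EtOH. Control cells had 13.58, 13.30 and 13.30 with Dex and 11.01, 11.04 and 11.04 with EtOH. Tsc22d3, an anti-inflammatory effector also called GILZ, was higher in dKO under both treatments, rose by 1.95 ± 0.11 in dKO and 2.36 ± 0.11 in control, and the interaction of -0.41 ± 0.15 (adjusted p = 0.147) was not called. A second Tsc22d3 probe, above background on all 12 arrays, had -1.55 ± 0.46 (adjusted p = 0.101 over all probes), with 10.28, 10.48 and 10.37 in dKO Dex, 9.35, 9.14 and 8.12 in dKO EtOH, 9.59, 9.51 and 10.66 in control Dex, and 6.94, 6.87 and 6.80 in control EtOH. On it control Dex replicate 3 lay above every dKO Dex array. Sgk1, a kinase that regulates ion transport, rose by 1.65 ± 0.10 in dKO and 1.96 ± 0.10 in control, with an interaction of -0.32 ± 0.14 (adjusted p = 0.218) that changed sign under median scaling (0.07). The receptor gene Nr3c1 was above background on 1 of 12 arrays and was not tested.

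Of 31 tested glucocorticoid-induced genes 2 were called (6.45%, against 2.29% of all genes), with a list median of -0.13. Among genes with an average rise with Dex 6.61% were called, and among those raised at least 2-fold 17.1%. Of the 31, 12 were positive and 19 negative, where 58.8% of all genes were positive. The median Dex change of the list was 1.5 in dKO and 1.32 in control. Under median scaling the list median was 0.07, below that of all genes as with quantile normalization. Leaving out 1 array moved it between -0.31, without control Dex replicate 3, and -0.02, without control Dex replicate 1. The list median was -0.21 without the 3 arrays that stand apart and -0.25 with a term for them, with 1 call each. The called members were Lcn2, above, and Serpina3n, a serine protease inhibitor of the acute phase, which had the opposite sign. The Serpina3n level in dKO MEFs was 12.92, 13.14 and 12.74 with Dex and 8.34, 8.52 and 8.37 with EtOH. Serpina3n was 13.34, 13.07 and 12.79 in control Dex and 9.45, 9.78 and 9.77 in control EtOH. The Dex groups overlapped, and with EtOH the dKO arrays were all lower. Serpina3n rose by 4.53 ± 0.15 in dKO and 3.39 ± 0.15 in control, and the interaction was 1.13 ± 0.22 (adjusted p = 0.0314), called in 16 of the 27 alternatives. Pdk4, a kinase that limits pyruvate oxidation, had -0.74 ± 0.19 (adjusted p = 0.0676).

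Among 12 tested acute phase and complement genes 3 were called (25.0%, against 2.29% of all genes), Lcn2 and Lbp negative and Serpina3n positive. The members had a median Dex change of 1.44 in dKO and 1.81 in control. Of all genes raised at least 2-fold on average by Dex 17.1% were called. Lbp, the lipopolysaccharide-binding protein, rose by 1.69 ± 0.23 in dKO and at least 7.34-fold in control, where the EtOH arrays were at background, and the interaction was -1.83 ± 0.32 (adjusted p = 0.0223). Lcn2 was the 1 call without the 3 arrays that stand apart, and Lbp had -1.78 (adjusted p = 0.0517). The list median was 0.13, and it turned to -0.06 without background correction, -0.08 without the 3 arrays and -0.11 with a term for them.

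Of 18 tested metallothionein and detoxification genes 3 were called (16.7%, against 2.29% of all genes), all positive, with a list median of 0.36. In limma 0 of the 18 were called without the 3 arrays that stand apart, and 0 with a term for them, with list medians of 0.26 and 0.30. Aldh3a1, an aldehyde dehydrogenase, averaged 10.63 in dKO Dex, 7.95 in dKO EtOH, 6.37 in control Dex and 5.58 in control EtOH, where it was at background. It rose by 2.69 ± 0.30 in dKO, and the interaction was 1.89 ± 0.42 (adjusted p = 0.0457). The shift of the 3 arrays was called for Aldh3a1 (adjusted p = 0.041), and without them the interaction was 1.19 (adjusted p = 0.217). Fmo1, a flavin-containing monooxygenase, rose by 1.89 ± 0.24 in dKO and had an interaction of 1.52 ± 0.33 (adjusted p = 0.043). Fmo1 was at background in control EtOH and above it on 1 control Dex array, and its interaction was 1.90 with values at the floor and 1.45 (adjusted p = 0.169) without the 3 arrays. Akr1b8, an aldo-keto reductase, fell by 0.68 ± 0.11 in control and had 0.79 ± 0.16 (adjusted p = 0.0334). Gsta3, described above, is a related enzyme gene, and Mgst2 had the opposite sign. Further called enzyme genes outside the list went both ways, with Gstk1 (0.64) and Aldh3b1 (0.62) positive and Ugt1a10 (-1.52) and Ugt1a6a (-1.07) negative.

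In the growth factor list 3 of 21 were called (14.3%, against 2.29% of all genes), all of them binding proteins of insulin-like growth factors, with a list median of 0.02. Igfbp6 was negative, while Igfbp4 and Igfbp5 were positive. Igfbp4 measured 12.06, 12.20 and 12.16 in dKO Dex and 12.54, 12.34 and 12.29 in dKO EtOH. The control arrays read 10.44, 10.48 and 10.50 with Dex and 11.53, 11.49 and 11.41 with EtOH. Igfbp4 was highest in the dKO arrays, fell by 1.00 ± 0.09 in control with -0.25 ± 0.09 in dKO, and the interaction was 0.75 ± 0.13 (adjusted p = 0.0223). A second Igfbp4 probe, above background on all 12 arrays, had an interaction of 0.10 ± 0.22 (adjusted p = 0.818 over all probes). Igfbp5 fell by 1.08 ± 0.11 in control with -0.31 ± 0.11 in dKO, and the interaction was 0.77 ± 0.16 (adjusted p = 0.037). Igfbp5 was not called without the 3 arrays that stand apart, with 0.54 (adjusted p = 0.164).

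Interferon-response genes leaned one way with a single call. Of 21 tested, Oasl2, an interferon-induced member of the oligoadenylate synthetase family, was called (4.76%, against 2.29% of all genes). Of the 21, 19 were positive, against 58.8% of all genes. The list median was 0.69, against 0.08 over all genes, and 0.60 without the 3 arrays that stand apart. In dKO cells Oasl2 read 7.55, 7.72 and 7.35 with Dex and 8.21, 8.01 and 7.73 with EtOH. For Oasl2 the control MEFs gave 8.92, 8.28 and 8.32 with Dex and 10.08, 10.56 and 10.20 with EtOH. Control EtOH arrays were the highest and the dKO groups did not overlap with them. Oasl2 fell by 1.77 ± 0.20 in control, its change of -0.44 ± 0.20 in dKO was not called, and the interaction was 1.33 ± 0.28 (adjusted p = 0.037). Ifit3 and Psmb9 had 1.07 ± 0.30 (adjusted p = 0.0831) and 0.77 ± 0.20 (0.0721). The members of the list had a median Dex change of -0.35 in dKO and -0.63 in control. Members that answer 1 interferon signal move together and are not independent.

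Homeobox genes of the Hox clusters, which hold positional identity in fibroblasts, had 13 of 15 positive members, against 58.8% of all genes. Their median was 0.32, against 0.08 over all genes. In limma 0 were called, and 8 had an unadjusted p under 0.05, against 1890 of all 8420 genes. Hoxb5 had 0.74 ± 0.19 (adjusted p = 0.0658) and Hoxd10 0.69 ± 0.18 (0.0707). Of 22 cell cycle genes 2 were called (9.09%, against 2.29% of all genes), with a median of 0.27. Mcm5, a subunit of the replicative helicase, fell by 0.81 ± 0.11 in control with -0.12 ± 0.11 in dKO, and the interaction was 0.70 ± 0.15 (adjusted p = 0.0395). Tk1, thymidine kinase, fell by 1.22 ± 0.14 in control with -0.35 ± 0.14 in dKO, and the interaction was 0.87 ± 0.20 (adjusted p = 0.0488). Neither was called without the 3 arrays that stand apart, with 0.52 for Mcm5 (adjusted p = 0.136) and 0.70 for Tk1 (0.105).

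Immediate early and stress genes had 3 negative calls among 21 tested (14.3%, against 1.01% of all genes called negative), with a list median of -0.04. In limma 0 of the 21 were called without the 3 arrays that stand apart, and 0 with a term for them, with list medians of -0.19 and -0.17. Jun, an AP-1 subunit, fell by 0.39 ± 0.11 in dKO, rose by 0.34 ± 0.11 in control, and the interaction was -0.73 ± 0.15 (adjusted p = 0.0344). Trib3, a pseudokinase of the stress response, fell by 1.16 ± 0.14 in dKO with -0.17 ± 0.14 in control, and the interaction was -0.99 ± 0.20 (adjusted p = 0.037). Myc was above background on every control Dex array and on 1 dKO EtOH array, and its interaction of -1.35 ± 0.31 (adjusted p = 0.0488) was -0.44 (adjusted p = 0.095) with values raised to the floor.

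Other lists held 1 call or none. Among 21 inflammatory genes repressed by glucocorticoids, Mmp12, a macrophage elastase, fell by 3.21 ± 0.12 in dKO and 2.35 ± 0.12 in control, and the interaction was -0.86 ± 0.17 (adjusted p = 0.0314). Bmper, a secreted regulator of BMP signalling, rose by 1.86 ± 0.17 in dKO with 0.49 ± 0.17 in control. Its interaction was 1.37 ± 0.24 (adjusted p = 0.0228), as the 1 call of the 25 tested genes in the Wnt, BMP and TGF-beta list. Outside that list the Wnt pathway genes Wnt10a (-1.29), Apcdd1 (-1.91) and Vangl2 (0.69) were called. Srebf2, the transcription factor of cholesterol synthesis, rose by 0.52 ± 0.09 in control with -0.07 ± 0.09 in dKO, and the interaction was -0.59 ± 0.13 (adjusted p = 0.0395), as the 1 call of 17 lipid synthesis genes. The 15 receptor, chaperone and coregulator genes, 23 collagen and matrix genes and 14 smooth muscle genes had 0 calls by limma. So had the 18 hypoxia and glycolysis genes, 13 adipogenesis genes and 7 clock kinases and ligases. At an unadjusted p under 0.05 these lists had 3, 5, 4, 2, 4 and 2 genes, in that order. Over all 8420 genes it was 1890. The lists do not hold every gene of their class, and Col24a1 (1.31) and Nid1 (-0.91) were called outside the collagen and matrix list.

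The cultures held RNA of other cell types. Fibroblast markers were measured for 11 of 12 genes, with 0 called and summed signals of 101000 to 105000 in dKO Dex, 99900 to 109000 in dKO EtOH, 62000 to 69100 in control Dex and 64700 to 68400 in control EtOH. Epithelial markers (4 genes tested) summed to 345 to 377 in dKO Dex, 223 to 259 in dKO EtOH, 1440 to 1800 in control Dex and 1040 to 1100 in control EtOH. Cartilage and bone markers (6 genes) summed to 1950 to 2120 in dKO Dex, 1910 to 2730 in dKO EtOH, 431 to 485 in control Dex and 507 to 598 in control EtOH. The dKO cultures thus had the higher fibroblast and cartilage signals and the lower epithelial signal under both treatments. In dKO EtOH the epithelial sum lay below that of 4 genes each at the array's lowest above-background level. In control Dex the cartilage sum lay near that of 6 such genes. The sizes of the epithelial and cartilage differences are therefore uncertain. No fibroblast, epithelial, cartilage and bone, endothelial or neural marker was called. Macrophage markers were measured for 13 of 18 genes (Ptprc, Cd68, Csf1r, Itgam and Cd74 were not among the genes tested), with 1 called, Aif1, at 0.79 ± 0.18 (adjusted p = 0.0488). A second Aif1 probe, above background on 9 arrays, had the opposite sign, at -0.36 ± 0.41 (adjusted p = 0.622 over all probes). Their summed signal ran from 136000 to 139000 in dKO Dex, 141000 to 166000 in dKO EtOH, 172000 to 181000 in control Dex and 182000 to 194000 in control EtOH, and the list median of the interaction was 0.09. The summed macrophage signal was lower in dKO arrays and, in either genotype, lower with Dex. In bulk RNA fewer cells of a type and less RNA per cell cannot be told apart, and the part of macrophages in the interactions of Mmp12, Cd83, Il16 or the interferon genes, and of the other cell types in any interaction, was not tested.

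**Figure D4:**
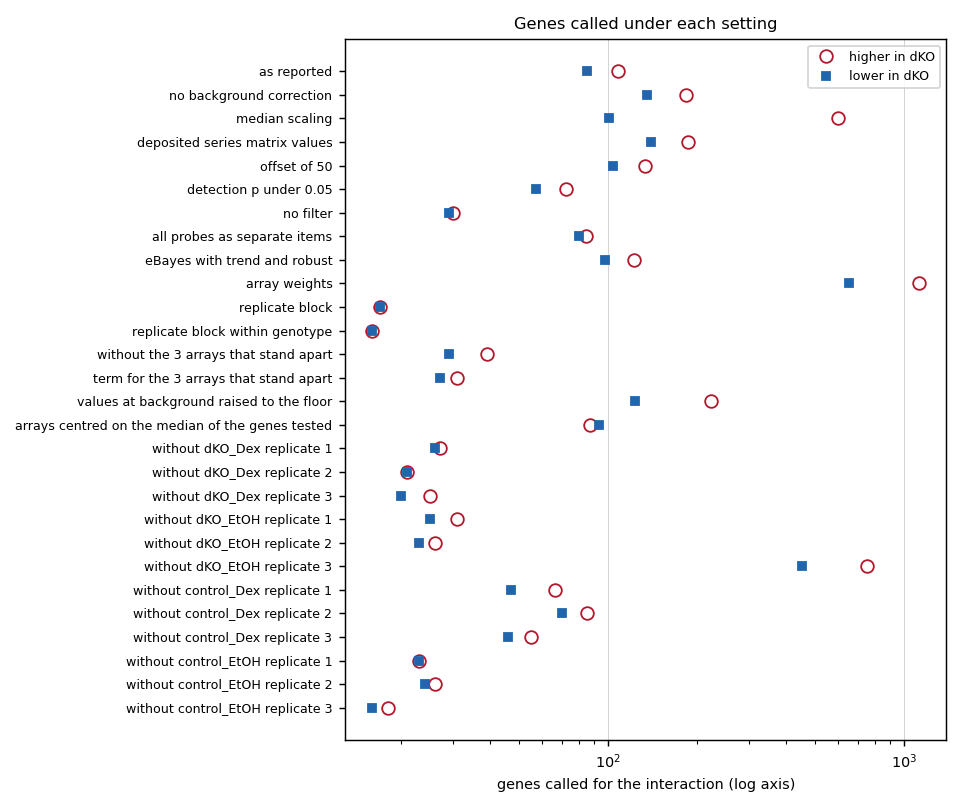
Number of genes called for the interaction (log axis) under the reported setting and the 27 alternatives, positive as open circles and negative as squares. The counts run from 32 to 1774 in all, and leaving out dKO EtOH replicate 3 or weighting the arrays gives the highest.

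The number of calls was the least stable result. It ranged from 34 to 1203 when 1 array was left out, lowest without control EtOH replicate 3 and highest without dKO EtOH replicate 3, whose removal leaves the 2 dKO EtOH arrays that stand apart together. The count stayed within 1.5 times of 193 for 1 of the 12 arrays, control Dex replicate 2. The 30 genes with the smallest p in each direction were called in 19 to 27 of the 27 alternatives, and the 18 further list members named as called in 5 to 19. Of these 18, Igfbp4 alone was called without the 3 arrays that stand apart or with a term for them, and all 18 kept their sign without them. All 193 genes kept their sign in every fit except under a detection p of 0.05, no filter and the floor, where 192 did. These fits reuse the arrays from which the 193 were picked, so a kept sign, here and above, was largely fixed in advance. Among the 40 called genes with further detected probes, all probes had the same sign for 30 (75.0%).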

How the data were processed

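The 12 arrays were read in 4 groups of 3 (dKO Dex, dKO EtOH, control Dex, control EtOH), as the labels give them. Per the file headers, the deposited intensities are mean bead signals per probe, each followed by a detection p-value. Such p-values set a probe against the negative controls of its array, which the headers do not state. GenomeStudio is named without a version in the submitters' processing notes, and the labels' protocols give Trizol and RNeasy extraction and biotinylated cRNA. A further deposited table of normalized intensities, made by steps that the sources do not state, served as an alternative.

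Signals were background corrected with limma 3.58.1 in R 4.3.3 (nec, offset 16), quantile normalized and brought to log2. Probes with a detection p under 0.01 on at least 3 arrays were kept, 338 of them on exactly 3. A gene above background in 1 group alone, such as Defb1, passed through that group. The filter thus picks such genes for a difference between groups. Symbols came from the platform annotation, updated by Entrez identifier for 23962 of 23978 probes, and 1719 probes had none. Each gene was read from its detected probe with the highest mean (2166 genes had further ones). A model with 1 mean per group was fitted with lmFit and eBayes, and p-values were adjusted by Benjamini-Hochberg over 8420 genes. The analysis was tested on simulated data with independent noise and no shift shared between arrays. It therefore does not bear on the shift of the 3 arrays that stand apart. The labels number the replicates but name no shared litter or day, so groups were treated as independent. Residuals of same-numbered arrays correlated between -0.18 and -0.05 within a genotype and between -0.05 and 0.14 within a treatment. Between dKO EtOH and control Dex, which hold the 3 arrays that stand apart, they gave -0.41, -0.35 and -0.63. With their shift in the residuals these values cannot show that pairing is absent. With the replicate number as a block 34 genes were called. The number of arrays limits the precision.

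Named are the 15 genes with the smallest p in each direction, the genes Cry1, Cry2, Per1, Per2, Dbp, Nr3c1, Fkbp5, Tsc22d3 and Sgk1, and up to 4 members of a described list with the smallest p. The members and all lists were chosen with earlier results of these data known. At background means that no array of the group had a detection p under 0.01. A fold against such a group is a lower bound, the mean of the brighter group against, on each array, the higher of the probe's level and the lowest above-background level. Alternatives tried were median scaling, no background correction, the deposited normalized table, an offset of 50, a detection p under 0.05, no filter, all probes as items, eBayes with trend and robust, array weights, the replicate number as a block (over all arrays or within genotype) and leaving out each array. Chosen after seeing the data were leaving out the 3 arrays that stand apart, a term for them, raising values to the floor, and centring. Promoter windows are from RefSeq (GRCm38.p6).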

Additional observations from a re-analysis of the deposited data

Results flagged for a closer look

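For each gene below, the test of the difference between the genotypes in their Dex change passed in limma (n = 3 arrays per group), which is what put it here. The values are the interaction in log2. Clock outputs had Dbp 1.70, Nr1d2 1.35, Tef 0.92 and Nr1d1 1.79. Genes raised more in dKO were Defb1 2.57, Gsta3 2.14, Rnase2a 1.44, Rpp25 1.88, Ramp2 2.59, Tnnt1 1.59, Il16 1.23, Abra 1.59, Bmper 1.37, Serpina3n 1.13, Fmo1 1.52 and Aldh3a1 1.89. Genes lowered more in control were Pdlim4 1.24, Cd83 1.58, 5031410I06Rik 1.17, Mlf1 1.06, Igfbp4 0.75, Igfbp5 0.77, Akr1b8 0.79, Oasl2 1.33, Mcm5 0.70, Tk1 0.87 and Aif1 0.79.

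Genes raised more in control were Spink8 -2.21, Anxa8 -2.32, Jaml -2.80, Tinagl1 -1.56, Rab15 -1.48, Stard10 -1.38, Lcn2 -1.67, Trpc4 -1.35, Kif3b -1.45, B3galnt1 -1.08, Aqp1 -1.40, Igfbp6 -1.24, Mgst2 -0.99, Dlg3 -0.93, Lbp -1.83, Jun -0.73, Srebf2 -0.59 and Myc -1.35. Genes lowered more in dKO were Smarcc1 -1.59, Trib3 -0.99 and Mmp12 -0.86.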

How the results depend on the processing

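The count of 193 called genes (108 positive, 85 negative) was 319 (184, 135) without background correction, 697 (596, 101) with median scaling, 326 (186, 140) with the deposited normalized table, 237 (133, 104) with an offset of 50, 129 (72, 57) with a detection p under 0.05, 59 (30, 29) with no filter, 164 (84, 80) with all probes as items, 220 (122, 98) with trend and robust, 1774 (1124, 650) with array weights, 68 (39, 29) without the 3 arrays that stand apart, 58 (31, 27) with a term for them, 345 (222, 123) with the floor and 180 (87, 93) with centring. Leaving out 1 array gave 34 to 1203 (18 to 750 positive, 16 to 453 negative). With the replicate block, which rests on shared numbers only, 34 genes were called (17, 17), and 32 (16, 16) with the block within genotype. With genes chosen again by their average Dex change in each fit, the median interaction of raised genes, -0.01, was 0.17 with median scaling, 0.14 with weights and -0.10 without the 3 arrays or with their term, and -0.05 to 0.14 leaving out 1 array. That of lowered genes, 0.21, was 0.14 without background correction, 0.43 with median scaling, 0.15 with the deposited table, 0.16 with all probes or centring or without the 3 arrays, 0.06 with weights, 0.12 with the term, and 0.13 to 0.26 leaving out 1 array. Signs turned for genes that were not called: Fkbp5 was -0.12 without background correction, -0.14 with the deposited table, -0.04 without the 3 arrays and -0.06 with their term, Sult1a1 0.08 in the first 2 of these, Sgk1 0.07 with median scaling, and Rora 0.03 without the 3 arrays and 0 with their term. The cause was not tested. For 49 called genes a group was at background, and 32 of them kept the call with values at the floor.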

Other observations

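Of the 672 detected probes without a gene symbol, 10 (1.49%) were called when all detected probes were tested as separate items, 9 with a positive interaction between 0.64 and 1.64 and 1 with a negative one of -0.85. They are not named in the annotation used here.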
